A study of Homo sapiens with 12 samples.

Results

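Transcripts of 10 genes of the insulin-like growth factor (IGF) system were followed in BEAS-2B cells, an immortalised line of human bronchial epithelial cells. The genes were 6 IGF-binding proteins (IGFBP2 to IGFBP7), the receptors IGF1R and INSR, and the receptor adaptors IRS1 and IRS2. They were chosen by name among 28395 genes of the count table, matched through Entrez identifiers, and all 10 were among the 13469 genes with enough counts to be tested. RNA sequencing covered 12 libraries, which the submitters describe as biological triplicates of 4 groups. The control group was untreated, the TGF-β1 group received 40 pM transforming growth factor β1 for 24 h, the dexamethasone group received 30 nM of this synthetic glucocorticoid for 4 h, and the group called both received TGF-β1 for 24 h and then dexamethasone for a further 4 h. All cells were kept in medium without serum or steroid for 24 h before treatment, and the vehicle is not given in the sources used here. A single cell line was studied, and one label field names A549 lung carcinoma cells where all others name BEAS-2B.

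IGF-binding proteins are secreted carriers that hold IGF1 and IGF2 outside the cell, lengthen their life and limit or deliver them to receptors. IGFBP7 is a related protein that binds IGFs only weakly. IGF1R and INSR are receptor tyrosine kinases for the IGFs and insulin, and once active they phosphorylate IRS1 and IRS2, which recruit phosphoinositide 3-kinase (PI3K). PI3K activates AKT, which among other actions keeps FOXO transcription factors out of the nucleus.

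Library totals were 5861591 to 7008203 counts in replicates 1 and 2 and 17968961 to 19727235 in replicate 3 of each group. Levels are CPM, a gene's counts relative to the scaled total of its library. All 10 airway epithelial markers were detected, at 3108 to 3901 CPM in sum in the control libraries, 3725 to 5501 with TGF-β1, 4334 to 6144 with dexamethasone and 6191 to 8854 with both. With TGF-β1, 2 of the 10 passed the test described below as higher (KRT17, from 513.2 to 1648 CPM on average, and KRT7) and 3 as lower (KRT18, 358.7 to 148.5, KRT19, 186.3 to 60.4, and CDH1, 99.9 to 63.6). With dexamethasone 2 were higher and 1 lower. For these markers and those that follow, 32.8% of all tested genes passed with TGF-β1 and 10.4% with dexamethasone. The sum of 8 leukocyte markers was 17.2 to 31.9 CPM in the 12 libraries, and of the 3 tested CSF1R was higher with TGF-β1 and with dexamethasone and CD14 lower with TGF-β1. That of 8 transcripts abundant in A549 cells was 73.6 to 145.6 CPM, and of the 4 tested ALDH3A1 and AKR1B10 were lower with TGF-β1 and AKR1B10 higher with dexamethasone. Its largest part was UCHL1 (60.3 CPM on average in control), while ALDH1A1, CES1, GPX2 and TM4SF4 were under 1 CPM in every group. CSF1R (42 counts in the 3 control libraries) had enough counts to be tested only through treated libraries, and AKR1B10 (47) only through the dexamethasone group. The tests of their rises therefore cannot count as support. The part of these markers in the changes of the IGF genes was not tested. In bulk RNA, fewer cells of a type and less RNA per cell cannot be told apart.

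Compared per kilobase of exon, the only scale on which levels of different genes were compared, IGFBP4 was the most abundant of the 10 transcripts in untreated cells, at 127.9 ± 18.3 CPM per kb (SD, n = 3). IGFBP7 (44.96 ± 16.4), IGFBP6 (24.7 ± 4.60) and IGFBP3 (23.0 ± 4.59) came next on this scale, and each overlapped the next of these in range. IRS1 (13.4 ± 0.727), IRS2 (11.2 ± 0.448), IGF1R (9.90 ± 0.824) and IGFBP2 (9.20 ± 0.665) lay in the middle, where only IGF1R and IGFBP2 overlapped. INSR (2.32 ± 0.370 CPM per kb) and IGFBP5 (0.653 ± 0.112) were lowest and overlapped with no neighbour. With TGF-β1, IGFBP7 (376.5 ± 139.5 CPM per kb) and IGFBP4 (240.0 ± 30.3) led with overlapping ranges, followed without overlap by IGFBP3 (162.0 ± 31.2), and IGFBP2 (1.82 ± 0.158) overlapped with IGFBP5 (1.70 ± 0.363) at the bottom. With dexamethasone the order again began with IGFBP4 (106.0 ± 17.1 CPM per kb) and IGFBP7 (41.1 ± 14.7), and IRS2 (35.8 ± 3.41), which overlapped IGFBP7, came next. The length used counts every annotated exon of a gene, so the order and the shares given below could differ with another length.

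**Figure D1:**
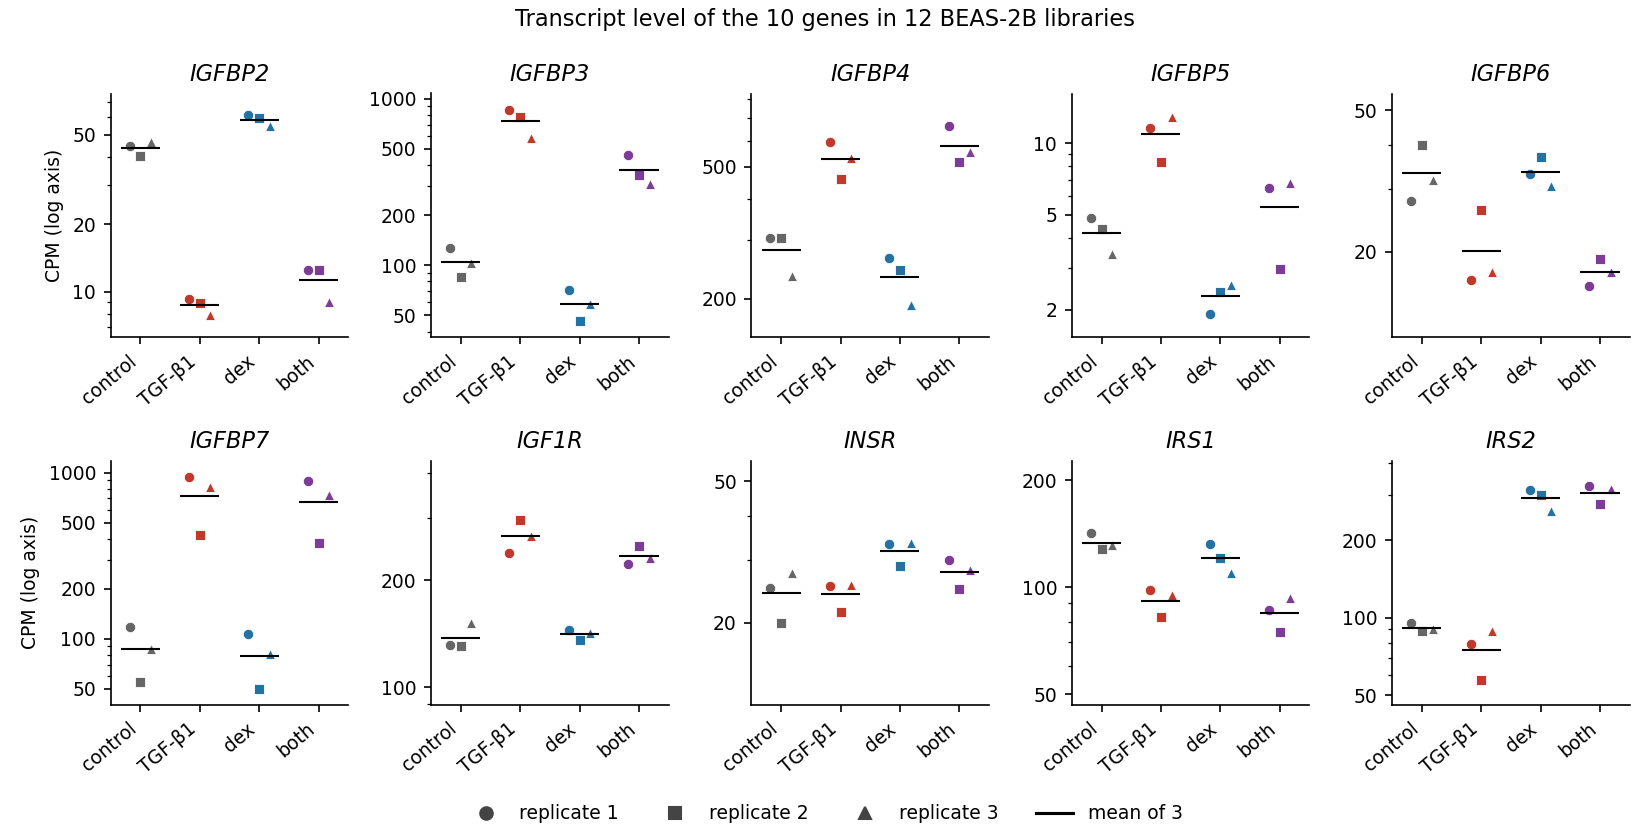
Level of each gene (CPM, log axis with a different range per gene) in the 12 libraries, with 1 point per library, shape for replicate number and a bar for the mean of 3. IGFBP2, IGFBP3, IGFBP4, IGFBP7, IGF1R, IRS1 and, narrowly, IGFBP6 separate the groups with and without TGF-β1, while IRS2 separates the groups with and without dexamethasone.

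TGF-β1 was set against control to ask how the growth factor alters the system. The test was passed by 8 of 10 members: 5 rose (IGFBP3, IGFBP4, IGFBP5, IGFBP7 and IGF1R) and 3 fell (IGFBP2, IGFBP6 and IRS1). The test was edgeR's quasi-likelihood test with a Benjamini-Hochberg adjusted p under 0.05, and it called 32.8% of all tested genes, 16.2% as higher and 16.6% as lower. The median log2 fold change was 0.45 over the 10 genes and -0.01 over all tested genes. When libraries were scaled by their total alone, the median of all genes was -0.22 and the share of calls that were higher was 22.4% rather than 49.5%, while the 8 members kept their direction and their calls.

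IGFBP3 is the main carrier of IGFs in blood and a known TGF-β1 target. Its level was 127.2, 85.4 and 103 CPM in control replicates 1, 2 and 3 and 861.6, 776.6 and 583.6 CPM with TGF-β1. The groups did not overlap, and replicate 1 was highest in both. The log2 fold change was 2.81 ± 0.22 (SE), a 7.04-fold rise (adjusted p = 1.69e-06, edgeR), rank 139 among the rises of the 13469 genes.

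IGFBP7 was measured at 118.3, 55.1 and 87.0 CPM in control and at 940.4, 424.3 and 815.3 CPM with TGF-β1. Replicate 2 was the lowest of its group under every treatment, so the spread within a group was wide, but the ratio of TGF-β1 to control within the same replicate number ran only from 7.70 to 9.37. The log2 fold change was 3.06 ± 0.46 (adjusted p = 0.000683, edgeR), rank 107 among all rises. The end of IGFBP7 shares 386 bases with POLR2B, a subunit of RNA polymerase II on the other strand, and reads from that stretch cannot be assigned to a strand with this kit; POLR2B was at 181.1 ± 9.82 CPM in control and 162.1 ± 11.4 with TGF-β1 (SD, n = 3).

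IGFBP4, which restrains IGFs at the cell surface until proteases cut it, was at 305.2, 304.1 and 234.6 CPM in control and 593, 459.7 and 531.5 with TGF-β1. All 3 treated libraries lay above all 3 controls (log2 fold change 0.91 ± 0.15, adjusted p = 0.000311, edgeR). IGFBP5, a carrier that also binds matrix, was scarce, with 131 counts in the 3 control libraries and 350 in the 3 with TGF-β1. It was at 4.85, 4.35 and 3.43 CPM in control and 11.6, 8.35 and 12.9 with TGF-β1 (1.44 ± 0.27, adjusted p = 0.000852), again without overlap. With the libraries numbered 1 and 2 alone its call was lost (0.0546).

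The RefSeq sequences just upstream of the start of IGFBP3, IGFBP4 and IGFBP5 are shown because these 3 carriers rose together; the table used held no such sequence for IGFBP7. Each is the 250 bases before the start, on the gene's strand, in build GRCh38.p14: chr7:45921273-45921522 (minus strand) for IGFBP3, chr17:40443200-40443449 (plus strand) for IGFBP4 and chr2:216695550-216695799 (minus strand) for IGFBP5. Capitals mark the GC box GGGCGG on either strand and the TATA motifs named after the sequences.
IGFBP3: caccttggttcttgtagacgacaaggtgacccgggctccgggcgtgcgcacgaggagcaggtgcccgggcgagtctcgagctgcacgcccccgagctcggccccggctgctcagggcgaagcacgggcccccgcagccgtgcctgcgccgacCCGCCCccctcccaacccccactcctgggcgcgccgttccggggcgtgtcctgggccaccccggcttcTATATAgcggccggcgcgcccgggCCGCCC
IGFBP4: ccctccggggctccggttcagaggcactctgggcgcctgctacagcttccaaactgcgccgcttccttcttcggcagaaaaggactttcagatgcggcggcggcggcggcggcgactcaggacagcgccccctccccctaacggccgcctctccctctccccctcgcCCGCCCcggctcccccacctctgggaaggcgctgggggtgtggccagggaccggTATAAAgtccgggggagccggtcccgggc
IGFBP5: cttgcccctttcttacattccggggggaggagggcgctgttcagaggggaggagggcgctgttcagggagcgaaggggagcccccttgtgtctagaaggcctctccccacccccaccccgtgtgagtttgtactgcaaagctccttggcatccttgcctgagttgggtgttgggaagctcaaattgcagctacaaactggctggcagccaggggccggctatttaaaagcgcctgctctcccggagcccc
IGFBP4 had TATAAA with its first base at position -29 from the start, and IGFBP3 had TATATA at -30. Anywhere in their 250 bases, 10.7% of the 35116 RefSeq windows hold TATAAA, and 3.73% hold TATATA. The SMAD motifs CAGACA (13.6% of windows) and GTCTAGAC (0.182%) matched in none of the 11 member windows. IGFBP5 had a match to none of the motifs searched. A match is a description of letters, and no match says only that they were not in this window.

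IGFBP2, a carrier with a preference for IGF2, showed the deepest fall of the 10. It was at 44.6, 40.4 and 46.6 CPM in control and at 9.29, 8.97 and 7.85 with TGF-β1. The groups lay far apart with little spread (log2 fold change -2.36 ± 0.14, adjusted p = 2.52e-08, edgeR), rank 117 among the falls of all genes. IGFBP2 and IGFBP5 are neighbours on chromosome 2, in opposite orientation and 7669 bases apart (IGFBP2 216632828 to 216664436, IGFBP5 216672105 to 216695549), and the first fell while the second rose. IGFBP6, which binds IGF2 over IGF1, was at 27.9, 40.0 and 31.8 CPM in control and 16.6, 26.3 and 17.6 with TGF-β1 (-0.73 ± 0.17, adjusted p = 0.00456). Its highest treated library was just below its lowest control. The call was lost with the libraries numbered 1 and 2 alone (0.0929) and with 2 and 3 alone (0.0571).

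Per kilobase of exon, the 6 carriers together amounted to 230.4 ± 25.7 CPM per kb in control and 797.0 ± 170.3 with TGF-β1 (SD, n = 3). IGFBP4 made up 55.5% ± 5.43 of that sum in control and 30.5% ± 2.85 with TGF-β1. IGFBP7 accounted for 19.4% ± 5.83 and 46.1% ± 9.32, and IGFBP3 for 9.97% ± 1.42 and 20.9% ± 5.88. IGFBP2 dropped from a share of 4.03% ± 0.580 to 0.236% ± 0.0575. These shares describe the same counts as the tests above and are not further evidence.

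**Figure D2:**
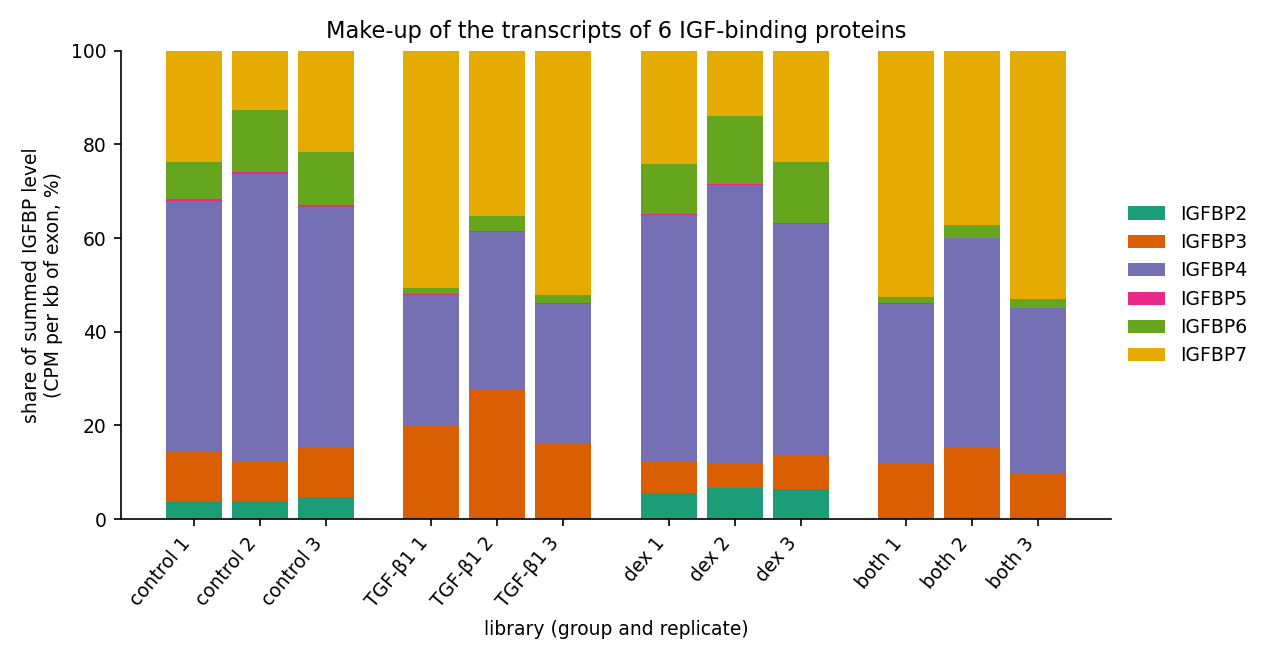
Share of each IGF-binding protein in the summed level of the 6 (CPM per kb of exon, percent), 1 bar per library. IGFBP4 is the largest segment in the 6 libraries without TGF-β1, and IGFBP7 is the largest in the libraries with TGF-β1 except replicate 2 of both.

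Among the receptors, IGF1R rose and INSR did not pass the test. IGF1R was at 131.8, 131 and 151.2 CPM in control and 237.8, 295.2 and 266.2 with TGF-β1 (log2 fold change 0.95 ± 0.09, adjusted p = 2.66e-06, edgeR). INSR was at 25.02, 20.02 and 27.6 CPM in control and 25.4, 21.5 and 25.5 with TGF-β1. Its groups overlapped, and the 95% interval of its log2 fold change ran from -0.30 to 0.27 (adjusted p = 0.942, edgeR).

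Of the adaptors, IRS1 was at 141.6, 127.7 and 131.2 CPM in control and 97.95, 82.3 and 95.0 with TGF-β1, with no overlap (log2 fold change -0.54 ± 0.10, adjusted p = 0.000962, edgeR). IRS2 was at 95.7, 88.8 and 90.2 CPM in control and 79.0, 57.4 and 89.1 with TGF-β1, and the groups overlapped (-0.28 ± 0.13, adjusted p = 0.130). IRS2 passed the test when libraries were scaled by their total alone (-0.49, adjusted p = 0.00450) and when TGF-β1 replicate 3 was left out (adjusted p = 0.0292).

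Markers of fibroblasts moved with TGF-β1 as well. The sum of the 10 listed was 730.2 to 1055 CPM in the control libraries and 10180 to 12730 with TGF-β1, mostly COL1A1 (572.7 and 10620 CPM on average). It was 673.8 to 1009 CPM with dexamethasone and 9093 to 11330 with both. Of the 5 tested, 4 rose with TGF-β1 (80%, where 32.8% of all tested genes passed). PDGFRA, DCN, LUM, COL3A1 and POSTN were under 1 CPM in every group. Their part in the changes of the IGF genes was not tested.

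**Figure D3:**
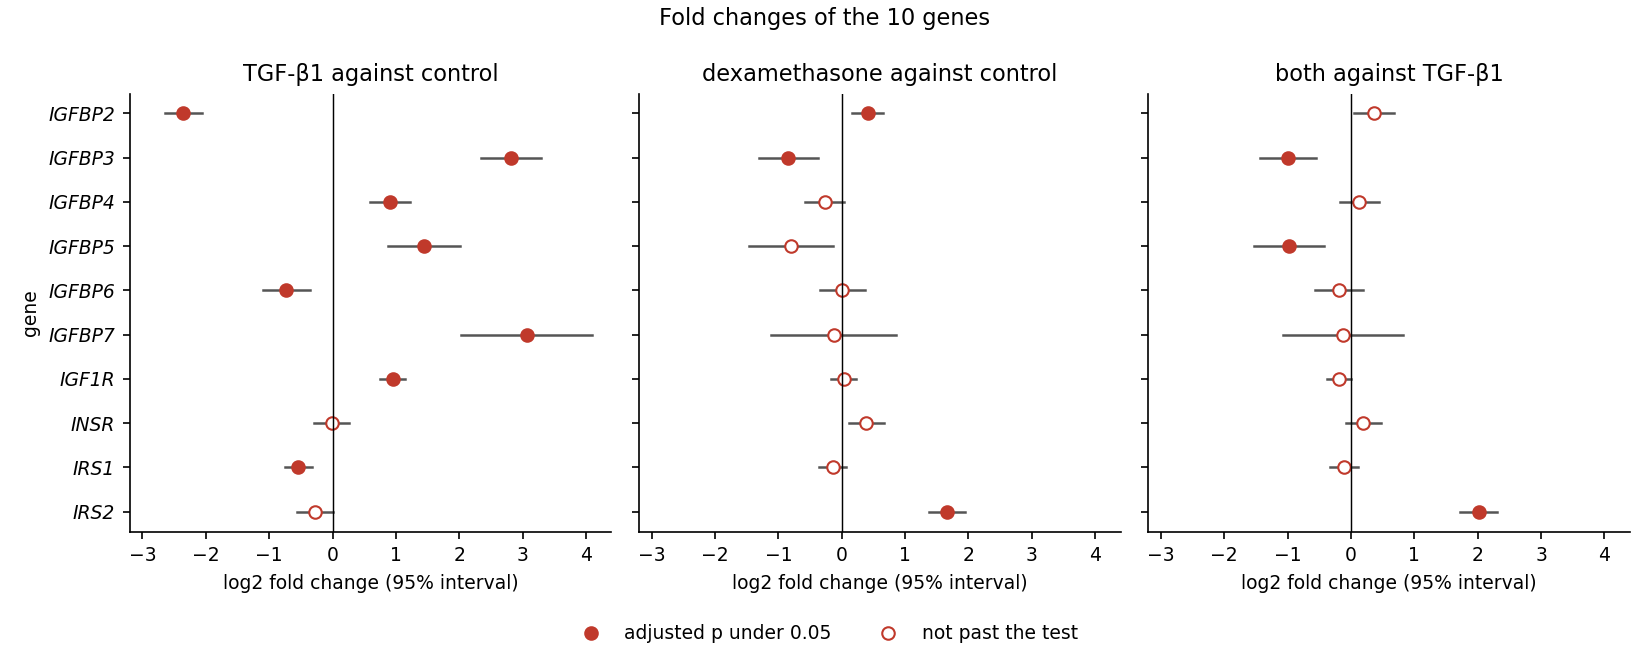
Log2 fold change of the 10 genes (x axis) with its 95% interval in 3 comparisons; filled points have an adjusted p under 0.05. With TGF-β1 the values run from -2.36 (IGFBP2) to 3.06 (IGFBP7), and with dexamethasone IRS2 stands apart at 1.67 and 2.02.

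Dexamethasone was set against control to ask what the glucocorticoid does alone. IRS2 and IGFBP2 rose and IGFBP3 fell, 3 of 10 past the test, where 10.4% of all tested genes passed, 5.54% as higher and 4.90% as lower. With the replicate number as a block, 5 of 10 passed (22.2% of all genes), adding a rise of INSR and a fall of IGFBP5. Without control replicate 1 or dexamethasone replicate 2, IRS2 was the 1 member past the test. All genes had 1132 and 1169 calls there, against 1406 with all libraries. The median log2 fold change was -0.06 over the members and 0.00 over all genes.

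IRS2 showed the clearest response. It was at 95.7, 88.8 and 90.2 CPM in control and 313.4, 299.9 and 260 with dexamethasone. Every treated library was far above every control, a 3.18-fold rise (log2 fold change 1.67 ± 0.13, adjusted p = 9.77e-07, edgeR), rank 201 among the rises of all genes. IRS1, its close relative, was at 132.6, 120.8 and 109.5 CPM with dexamethasone and overlapped with control (-0.14 ± 0.10, adjusted p = 0.516, 95% interval -0.36 to 0.07). Within a replicate number IRS1 was at 0.835 to 0.946 of control, and it did not pass with the replicate block (0.130).

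The sequence before the IRS2 start, chr13:109786584-109786833 (minus strand, GRCh38.p14), is shown because IRS2 was the member that responded most to dexamethasone. Capitals mark the GC box GGGCGG on either strand, with 5 matches, some sharing a base.
IRS2: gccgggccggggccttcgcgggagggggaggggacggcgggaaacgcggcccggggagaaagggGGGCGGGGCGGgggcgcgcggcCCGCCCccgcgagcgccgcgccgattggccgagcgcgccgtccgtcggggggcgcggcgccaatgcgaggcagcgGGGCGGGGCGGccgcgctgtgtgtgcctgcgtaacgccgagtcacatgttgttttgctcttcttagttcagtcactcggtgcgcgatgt
A full glucocorticoid response element, AGAACA and TGTTCT separated by any 3 bases, matched in none of the member windows and in 0.00285% of all windows. Its arm AGAACA alone, found in 12.4% of windows, matched in 2 of the 3 windows of IGFBP2 and in no other member. The forkhead motif TGTTTAC (2.98% of windows) matched in IGFBP6 alone among the members. GGGCGG was found in 9 of the 11 member windows, which belong to 8 of the 9 members with a sequence, against 42.6% of all windows. The IRS2 window was 76.4% G and C, above 91.9% of windows. Member windows ran from 56.4% (IGFBP2) to 81.2% (IGF1R) G and C, against a median of 58.0% over all windows. The part of this content in the matches was not tested.

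The carriers had smaller log2 fold changes with dexamethasone than IRS2. IGFBP3 was at 71.0, 46.3 and 58.3 CPM, below all 3 controls (log2 fold change -0.85 ± 0.21, adjusted p = 0.0231, edgeR). Within each replicate number the dexamethasone library had 0.542 to 0.566 of the control level. The call was lost without control replicate 1 (adjusted p = 0.0868), control replicate 3 (0.0637), dexamethasone replicate 2 (0.0861) or dexamethasone replicate 3 (0.0897), and without a filter on low counts (0.0902). IGFBP2 was at 61.2, 59.5 and 54.6 CPM, above all 3 controls (0.41 ± 0.12, adjusted p = 0.0386). Its call was lost without any 1 of the control libraries (0.0989, 0.145 and 0.0741 for replicates 1, 2 and 3), without dexamethasone replicate 1 (0.142) or 2 (0.122), without TGF-β1 replicate 1 (0.05001) and with scaling by library total alone (0.0792).

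IGFBP5 was at 1.92, 2.38 and 2.54 CPM with dexamethasone, from 82 counts in all, below its control values. Its log2 fold change of -0.80 ± 0.31 had an adjusted p of 0.135, and of 0.0408 with the replicate block (edgeR). INSR was at 33.3, 28.9 and 33.6 CPM, above its control values (0.39 ± 0.13, adjusted p = 0.0772, and 0.00190 with the block). It also passed without control replicate 3 (0.0466). IGFBP4, IGFBP6, IGFBP7 and IGF1R overlapped with control, with log2 fold changes of -0.27, 0.01, -0.13 and 0.03 and adjusted p of at least 0.346. With scaling by library total the log2 fold changes of IGFBP6 and IGF1R were -0.05 and -0.03. Within a replicate number, IGFBP4 with dexamethasone was 0.801 to 0.867 of control and IGFBP7 0.904 to 0.929, while IGFBP6 and IGF1R went both ways. None of these passed with the replicate block.

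The sum of 8 endothelial markers was 4.25 to 6.52 CPM in control and 166.3 to 341.5 with dexamethasone, nearly all of it KDR (227.4 CPM on average), and it was 6.65 to 9.03 CPM with TGF-β1 and 91.4 to 139.8 with both. Of the 8, 6 were under 1 CPM in the dexamethasone group. Their part in the changes above was not tested.

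The group with both agents was set against TGF-β1 alone to ask what dexamethasone does in cells that had received TGF-β1. If the TGF-β1 group was collected at 24 h, the groups also differ by 4 h in time since TGF-β1. That difference could not be told apart from dexamethasone, here or in the interaction below. IRS2 rose and IGFBP3 and IGFBP5 fell, 3 of 10, where 8.11% of all genes passed, 5.09% as higher and 3.01% as lower. The median log2 fold change was -0.12 over the members and -0.01 over all genes. With the libraries numbered 1 and 2 alone, IRS2 was the member that still passed. All genes had 605 calls there, against 1092 with all libraries.

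IRS2 was at 325.2, 276.7 and 315.3 CPM with both and 79.0, 57.4 and 89.1 with TGF-β1 alone. The groups were far apart, a 4.05-fold difference (log2 fold change 2.02 ± 0.13, adjusted p = 2.68e-07, edgeR), rank 126 among the rises. IGFBP3 was at 458.9, 349.1 and 309.9 CPM with both, below the 3 libraries with TGF-β1 alone (-0.99 ± 0.20, adjusted p = 0.00892) and above all controls. IGFBP5 was at 6.48, 2.96 and 6.81 CPM (-0.98 ± 0.26, adjusted p = 0.0295). That call was lost without replicate 1 (0.0518) or 2 (0.0719) of both, without TGF-β1 replicate 1 (0.0863) or 3 (0.163), and with the spread taken from these 2 groups only (0.0824).

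IGFBP2 was at 12.5, 12.5 and 9.003 CPM with both against 9.29, 8.97 and 7.85 with TGF-β1 alone. The groups overlapped (log2 fold change 0.36 ± 0.15, adjusted p = 0.205, edgeR), and of the alternatives run, the test was passed only without replicate 3 of both (0.0309). The other 6 members overlapped between these groups, with log2 fold changes from -0.19 (IGFBP6) to 0.20 (INSR). Within every replicate number IGFBP4 and INSR were higher with both, and IGFBP6, IGFBP7, IGF1R and IRS1 lower. The ratio was 0.847 to 0.931 for IGF1R and 1.11 to 1.19 for INSR. None of the 6 passed with the replicate block, where IGF1R came closest (adjusted p = 0.0676, edgeR).

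Whether dexamethasone acted differently with and without TGF-β1 was tested as an interaction, the difference between its log2 effects in the TGF-β1 and the control background. None of the 10 passed (edgeR; 0.884% of all genes did) and none had an unadjusted p under 0.05. DESeq2 called 0 members as well. With the replicate block, where 4.78% of all genes passed, 0 members passed and 2 had an unadjusted p under 0.05. The 95% interval was -0.05 to 0.74 for IRS2 (-0.08 to 0.75 with the block), -0.78 to 0.49 for IGFBP3 (-0.61 to 0.29) and -0.04 to 0.85 for IGFBP4 (0.04 to 0.76). For IGFBP7 it was -1.36 to 1.37, and -0.18 to 0.17 with the block. Within a replicate number, the level of IGFBP7 with dexamethasone was 0.904 to 0.929 of that without it in cells without TGF-β1, and 0.888 to 0.950 in cells with TGF-β1.

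**Figure D4:**
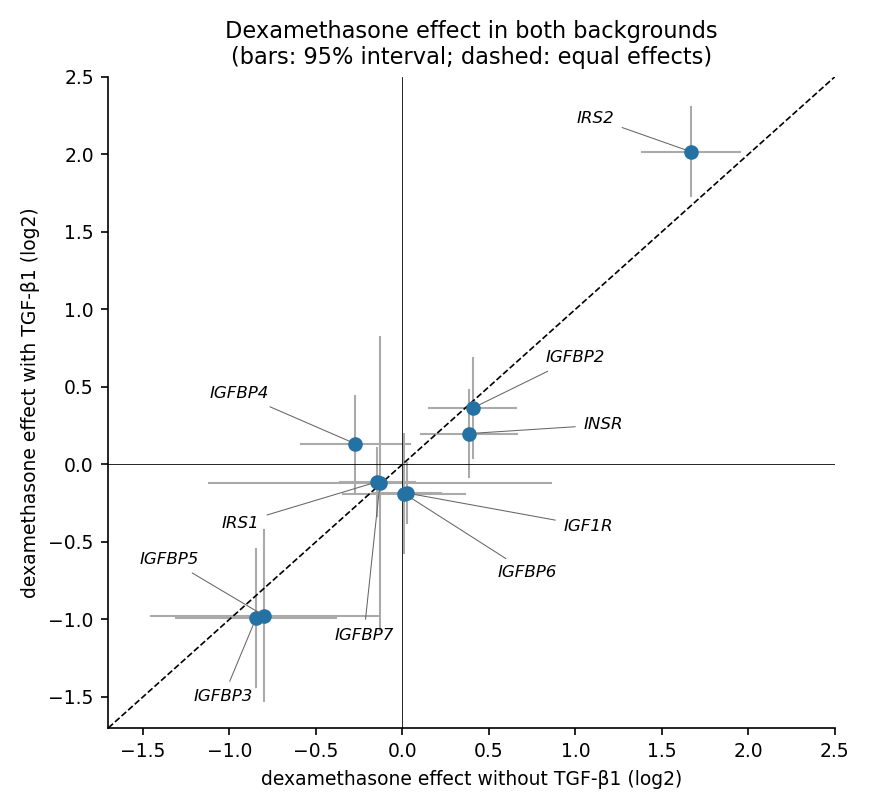
Dexamethasone effect (log2 fold change) without TGF-β1 (x axis) and with TGF-β1 (y axis) for the 10 genes, with 95% intervals; the dashed line marks equal effects. IRS2 is at 1.67 and 2.02, IGFBP3 at -0.85 and -0.99, and the intervals of most other genes reach 0 on at least 1 axis.

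The group with both agents was also set against dexamethasone alone, the TGF-β1 effect with dexamethasone present, where 8 of 10 members passed and 32.3% of all genes did, 15.9% as higher and 16.4% as lower. If the TGF-β1 group was collected at 24 h, this effect was read 4 h later than that of TGF-β1 against control. Any difference in time in culture could not be told apart from treatment, here or for both against control below. IGFBP7 (log2 fold change 3.07 ± 0.46, adjusted p = 0.000709, edgeR), IGFBP3 (2.67 ± 0.22), IGFBP4 (1.31 ± 0.15), IGFBP5 (1.26 ± 0.30) and IGF1R (0.73 ± 0.09) rose. IGFBP2 (-2.40 ± 0.13), IGFBP6 (-0.93 ± 0.17) and IRS1 (-0.51 ± 0.10) fell. IRS2 differed by 0.07 (95% interval -0.20 to 0.35), and by -0.13 with scaling by library total. With the libraries numbered 2 and 3 alone, the calls of IGFBP5 (adjusted p = 0.111) and IRS1 (0.0634) were lost, and that of IGFBP5 also with 1 and 2 alone (0.0946). INSR differed by -0.20 (adjusted p = 0.256), with a call under the replicate block (0.0433) and with scaling by library total (-0.41, adjusted p = 0.0153). Under that scaling all tested genes had a median of -0.23, and the share of calls that were higher was 22.9% rather than 49.3%.

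Against control, the cells with both agents had 8 of 10 members past the test, where 36.6% of all genes passed, 18.5% as higher and 18.1% as lower. IGFBP3 (log2 fold change 1.82 ± 0.21, edgeR), IGFBP4 (1.04 ± 0.15), IGFBP7 (2.94 ± 0.46), IGF1R (0.76 ± 0.09) and IRS2 (1.74 ± 0.13) were higher. IGFBP2 (-1.997 ± 0.13), IGFBP6 (-0.92 ± 0.17) and IRS1 (-0.65 ± 0.10) were lower. IGFBP5 was not past the test (0.46 ± 0.28, adjusted p = 0.217) except without replicate 2 of both (0.0319) or with libraries numbered 1 and 3 alone (0.0239). With scaling by library total the median of all genes was -0.27 and the share of calls that were higher 20.9% rather than 50.6%. The 5 comparisons share groups of samples with each other, so their values stand side by side and are not independent.

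The ligands were scarce. IGF2 was the only listed ligand with enough counts to be tested. It was at 0.693 ± 0.404 CPM in control and 3.33 ± 0.842 with TGF-β1 (SD, n = 3), from 30 and 111 counts (log2 fold change 2.05). It reached the filter on low counts only through the libraries with TGF-β1, so its test cannot count as support for the rise. IGF2R, which clears IGF2, was at 466.5 CPM in control and 531.9 with TGF-β1 (log2 fold change 0.19, adjusted p = 0.486, edgeR). IGF1 had 6 counts in the 3 control libraries, 6 with TGF-β1, 4 with dexamethasone and 3 with both, and INS had 1 count in all. IGFBP1 had 4, 2, 17 and 5 counts in the same order and was not tested.

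Proteases that cut IGF-binding proteins, and inhibitors of these, had 13 tested genes. With TGF-β1, 7 rose and 1 fell (median log2 fold change 0.74), 61.5% of the list, where 32.8% of all genes passed. The 8 calls became 4 or 5 without replicate 1 or 3 of either control or TGF-β1. All genes had 4416 calls with all libraries. They had 3749 and 3366 without control replicates 1 and 3, and 3486 and 3770 without TGF-β1 replicates 1 and 3. ADAM12, a metalloprotease that can cut IGFBP3 and IGFBP5, went from 72.3 to 495.4 CPM on average (2.78 ± 0.17, adjusted p = 8.86e-08, edgeR), and the convertase PCSK6 from 6.86 to 1.12 CPM (-2.44 ± 0.34, adjusted p = 8.38e-05). STC1, an inhibitor of the protease PAPPA, rose by 1.49 ± 0.49 (adjusted p = 0.0410), a call lost without any 1 control library, any 1 dexamethasone library, TGF-β1 replicate 1 or 3 or replicate 1 of both (0.0534 to 0.126). It was also lost with scaling by library total (0.0555), without a filter on low counts (0.113) and with only the groups compared (0.0692). With the libraries numbered 1 and 2 alone (0.244) or 2 and 3 alone (0.195) it was lost as well.

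With dexamethasone 2 of these 13 rose and 1 fell (median -0.26), 23.1% of the list against 10.4% of all genes. Without control replicate 1 or dexamethasone replicate 2 or 3, 1 call was left. All genes had 1132, 1169 and 1149 calls there, against 1406 with all libraries. PLAU, the urokinase plasminogen activator, went from 308.6 to 79.0 CPM (-1.96 ± 0.32, adjusted p = 0.00217, edgeR), and with both against TGF-β1 alone it was the 1 gene past the test (-1.89 ± 0.32), 7.69% of the list against 8.11% of all genes, where 2 passed with the block or without TGF-β1 replicate 3. With the libraries numbered 1 and 2 alone, PLAU lost its call in both comparisons (adjusted p = 0.0757 and 0.116, edgeR). The lysosomal protease CTSD (0.69 ± 0.20, adjusted p = 0.0448) lost its call with the block (0.0682) and without any 1 control or dexamethasone library, TGF-β1 replicate 1 or replicate 1 of both (0.0592 to 0.152). It was also lost without a filter on low counts (0.191), with the libraries numbered 1 and 2 alone (0.123) and with 2 and 3 alone (0.312). The metalloprotease ADAM9 (0.30 ± 0.08, adjusted p = 0.0293) lost its call without any 1 control library or dexamethasone replicate 2 or 3 (0.0682 to 0.151). Its call was also lost with scaling by library total (0.122) and without all libraries of any 1 number (0.118 to 0.207).

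Other receptor adaptors and brakes had 18 tested genes, of which 4 rose and 3 fell with TGF-β1 (median -0.13), and 6 and 5 with the block. The 7 are 38.9% of the list, near the 32.8% of all genes. GRB10, which dampens IGF1R and INSR, rose by 0.99 ± 0.12 (adjusted p = 2.70e-05, edgeR). SH2B3 rose by 0.51 ± 0.16 (adjusted p = 0.0257). The call was lost without control or TGF-β1 replicate 1 or 3 (0.0643 to 0.103) and with scaling by library total (0.107). With the libraries numbered 1 and 2 alone, and with 2 and 3 alone, the calls of SH2B3, SH2B1 and PTPN1 with TGF-β1 were lost. The adaptor SH2B1 fell by 0.34 ± 0.09 (log2; adjusted p = 0.0106, and 0.0534 without TGF-β1 replicate 3) and the phosphatase PTPN1 fell by 0.33 ± 0.11 (adjusted p = 0.0355; 0.0947 to 0.124 without control replicate 1 or 3 or TGF-β1 replicate 1 or 2).

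With dexamethasone 1 of these 18 rose and 3 fell (22.2%, against 10.4% of all genes), and 3 and 4 with the block. Without dexamethasone replicate 3, 2 calls were left, where all genes had 1149 calls against 1406 with all libraries. SOCS3, a feedback inhibitor of receptor signalling, went from 26.9 to 13.0 CPM (log2 fold change -1.04 ± 0.16, adjusted p = 0.000452, edgeR), and the adaptor SHC1 rose by 0.36 ± 0.07 (adjusted p = 0.00466). The SHC1 call was lost with the libraries numbered 1 and 2 alone (0.0674) and with 2 and 3 alone (0.0868). SH2B3 fell by 0.58 ± 0.16 (adjusted p = 0.0361). That call was lost without control replicate 1 or 2 or dexamethasone replicate 2 or 3 (0.0883 to 0.141). It was also lost without a filter on low counts (0.0658), with the libraries numbered 1 and 2 alone (0.256) and with 2 and 3 alone (0.166). With both against TGF-β1 alone, PTPN1 rose by 0.78 ± 0.11 (adjusted p = 0.000305), the 1 call of the list (5.56%, against 8.11% of all genes), which had 3 with the block and 2 without replicate 2 of any 1 group, control replicate 1 or dexamethasone replicate 3.

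In the list of PI3K, AKT and mTOR genes 29 were tested, and 6 rose and 4 fell with TGF-β1 (median 0.00), 34.5% where 32.8% of all genes passed. TRIB1 (log2 fold change 1.71 ± 0.40, adjusted p = 0.00640, edgeR) and the PI3K inhibitor PIK3IP1 (1.68 ± 0.27) led the rises. The AKT phosphatase PHLPP1 (-1.29 ± 0.10, adjusted p = 2.96e-07) and the PI3K regulatory subunit PIK3R3 (-1.02 ± 0.19) led the falls. With dexamethasone 2 rose and 1 fell, 10.3% where 10.4% of all genes passed, and 2 and 5 with the block. Neither share sets the list apart from all genes. PIK3R1, the regulatory subunit of PI3K that docks on IRS proteins, went from 31.9 to 156.8 CPM with dexamethasone (2.29 ± 0.14, adjusted p = 1.25e-07) and from 22.9 to 120.7 CPM when it was added to TGF-β1 (2.38 ± 0.15, adjusted p = 1.50e-07). It was the 1 call in that comparison (3.45% of the list, against 8.11% of all genes), where the block gave 2 rises and 3 falls, and 2 genes passed without dexamethasone replicate 3 or TGF-β1 replicate 3. PHLPP1 rose (0.53 ± 0.09) and PIK3R3 fell (-0.90 ± 0.19) with dexamethasone. With the libraries numbered 2 and 3 alone these calls of PHLPP1 (adjusted p = 0.130, edgeR) and PIK3R3 (0.124) were lost. So were those of TRIB1 (0.0669) and PIK3R3 (0.0522) with TGF-β1. PIK3R3 also lost its dexamethasone call with 1 and 2 alone (0.0978).

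FOXO factors and known FOXO targets had 19 tested genes, 2 of which (PIK3CA and RICTOR) are also in the list before. With TGF-β1 3 rose and 7 fell (median -0.38), 52.6% of the list where 32.8% of all genes passed. With dexamethasone 9 rose and 3 fell (median 0.16), 63.2% against 10.4% of all genes, and with both against TGF-β1 alone 6 rose and 0 fell (median 0.11), 31.6% against 8.11%. With the block these counts were 4 and 10, 9 and 4, and 7 and 1. FOXO1 went from 15.8 CPM with TGF-β1 to 195.2 with both (3.61 ± 0.18, adjusted p = 5.84e-08, edgeR). PDK4, a kinase that restrains pyruvate oxidation, went from 0.824 CPM, 27 counts in the group, to 24.1 CPM with dexamethasone (4.89 ± 0.45). PDK4 reached the filter on low counts only through libraries with dexamethasone, so its tests cannot count as support for its rises. It is among the 9 and the 6 rises counted above. When dexamethasone was added to TGF-β1, PDK4 went from 0.1145 CPM, only 4 counts in the group, to 6.24 CPM (5.42 ± 0.70). That call was lost with the libraries numbered 1 and 2 alone (adjusted p = 0.0632, edgeR). KLF15, a transcription factor of amino acid metabolism, rose by 4.17 ± 0.23 with dexamethasone and fell by 2.33 ± 0.39 (log2) with TGF-β1. FOXO6 fell with both agents given singly (-2.59 ± 0.22 with TGF-β1, -1.82 ± 0.20 with dexamethasone), and the death-promoting BCL2L11 fell with dexamethasone (-0.94 ± 0.13, adjusted p = 0.000134). SESN2 (1.02 ± 0.12) and the ubiquitin ligase FBXO32 (0.80 ± 0.09) led the rises with TGF-β1. Several genes of this list are direct glucocorticoid targets as background, and FOXO activity was not measured.

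Of 3 IGF2 mRNA-binding proteins, IGF2BP1 rose with TGF-β1 (3.21 to 7.01 CPM, log2 fold change 1.08 ± 0.25, adjusted p = 0.00443, edgeR) and the others did not pass in any of the 3 comparisons. That is 33.3% of the list, near the 32.8% of all genes.

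The genes whose pattern over the 12 libraries was closest to the 3 members with the widest range were found from centred log2 CPM. For IGFBP3, whose group means ranged over 3.66 log2 units, they were SPHK1 (root mean square difference 0.31) and ADAM19 (0.32). BGN (0.21) and COL4A2 (0.23) were closest to IGFBP7, with a range of 3.18. PPL (0.26) and LRRC75A (0.27) were closest to IGFBP2, with a range of 2.72.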

How the data were processed

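RNA sequencing of BEAS-2B cells gave 12 libraries in 4 groups of 3. Per the labels' protocols, 500 ng of total RNA with an integrity number above 8 went into poly(A) libraries made with a kit that does not mark strand. Per the submitters' processing notes, featureCounts assigned the reads on hg38. The sources used here do not name the aligner, the annotation, the strand setting or the featureCounts version. The deposited values are raw counts per Entrez gene identifier, not normalised by the authors. Symbols came from RefSeq (GRCh38.p14), with 27745 of 28395 identifiers matched (99.943% of counts). A further 6 columns of the table had no label and were not used.

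Genes were filtered with filterByExpr (minimum count 10), and 1 model held a mean for each group over all 12 libraries. It used TMM scaling and the robust quasi-likelihood test of edgeR 4.0.16 (R 4.3.3, limma 3.58.1), with Benjamini-Hochberg adjustment over 13469 genes. CPM levels use the TMM-scaled totals, and per kilobase levels used the exon union of GENCODE v29. No 2 replicates agreed within sampling noise (chi-square of their counts 5.81 to 17.8 for each degree of freedom). Libraries of the same number deviated together (correlation of deviations from the group mean 0.250 to 0.541, over 0.1 in 18 of 18 pairs), so the number was also fitted as a block. It lowered the common biological coefficient of variation from 0.122 to 0.0577. The code was tested on simulated data. Alternatives were DESeq2 1.42.0, scaling by library size, no filter, the block, only the groups compared and each library left out. Leaving out all libraries of 1 number, and every alternative for the listed genes, were added after seeing the data. The sum of mitochondrial transcripts was not used, because no symbol matched.

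The 10 genes, the gene lists and the rules were chosen with earlier results of these data known. Beside the 10, up to 2 genes per list and direction were named, those with the largest change past the test and a mean log2 CPM of at least 1, in TGF-β1 against control, dexamethasone against control and both against TGF-β1. The closest patterns are the 2 genes with the smallest root mean square difference in log2 CPM (prior count 2). Any other gene was named after its values were seen. Tables and figures used Python 3.11.15, pandas 2.3.3 and matplotlib 3.10.9.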

Additional observations from a re-analysis of the deposited data

Results flagged for a closer look

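In 5 genes of the lists described above, the dexamethasone effect with TGF-β1 differed from that without it (edgeR's interaction test, adjusted over all genes tested). Of the 82 tested genes of these lists, 5 passed, where 0.884% of all genes did, and 11 passed with the replicate block, where 4.78% did. With the block, STC1, PTPN1, SOCS1, FOXO1, FOXO6 and SESN2 passed besides the 5. FOXO3 and SESN1 were singled out after their values were seen. For SOCS3 the difference was 1.18 (log2, adjusted p = 0.0247): it fell from 26.9 to 13.0 CPM with dexamethasone alone and was at 20.4 CPM with TGF-β1 and 22.1 with both. For BCL2L11 it was 0.86 (adjusted p = 0.0379), with 126.3 CPM in control, 65.9 with dexamethasone, 50.9 with TGF-β1 and 48.4 with both.

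For FBXO32 the difference was -0.95 (adjusted p = 0.00173), a rise from 52.8 to 272.2 CPM without TGF-β1 and from 91.4 to 244.7 CPM with it. For FOXO3 it was -0.80 (adjusted p = 0.0328), from 104.6 to 347.7 CPM without and from 136.9 to 260.2 CPM with TGF-β1. For SESN1 it was -1.36 (adjusted p = 0.00344), from 12.9 to 37.6 CPM without and from 13.2 to 14.9 CPM with TGF-β1. With the libraries numbered 1 and 2 alone, and with 2 and 3 alone, all 5 calls were lost. The adjusted p (edgeR) was 0.119 and 0.237 for FBXO32 and 0.108 and 0.329 for SESN1. With 1 and 3 alone no call of the 5 was lost. Over all genes, 11 passed with 1 and 2 alone, 0 with 2 and 3 alone and 171 with 1 and 3 alone. With a single library left out, the calls of FBXO32 and SESN1 held in all 12 cases, while those of SOCS3, FOXO3 and BCL2L11 were lost in 6, 10 and 9 of 12. The call of SOCS3 was lost without replicate 1 or 3 of both, control replicate 1, dexamethasone replicate 2 or 3 or TGF-β1 replicate 3 (adjusted p 0.0503 to 0.0746). That of FOXO3 held only without control replicate 3 or TGF-β1 replicate 2, and reached 0.0985 otherwise. That of BCL2L11 held only without replicate 1 of both, control replicate 2 or TGF-β1 replicate 2, and reached 0.109 otherwise. It was also lost with scaling by library total alone (0.0694).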

How the results depend on the processing

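Of 470 values of the 60 member effects under other settings, 449 kept their side of the threshold, 15 lost the call and 6 gained it, and of 720 values with 1 library left out, 702 kept it, 14 lost it and 4 gained it. The sign changed in 13 of the 470 and in 31 of the 720, in 0 of them for an effect past the test, and the values after the change were at most 0.13 and 0.26 in size (log2). With library size alone the 4 that changed sign were IGF1R and IGFBP6 with dexamethasone, INSR for both against control (-0.08) and IRS2 for both against dexamethasone. With the replicate block, the pairing of libraries by number raised the genes past the test to 6741 (from 4416) for TGF-β1 against control, 2996 (from 1406) for dexamethasone against control, 2353 (from 1092) for both against TGF-β1, 6727 (from 4352) for both against dexamethasone and 644 (from 119) for the interaction, and the members past the test with dexamethasone to 5 (from 3). The block changed the call of 3 member effects, IGFBP5 and INSR with dexamethasone and INSR for both against dexamethasone, and of no other member. DESeq2 called 215 genes for the interaction.

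With 1 library left out, the interaction had 57 to 120 genes past the test (57 without control replicate 1, 62 and 64 without replicates 3 and 1 of both, 63 and 73 without TGF-β1 replicates 1 and 3, 69 without dexamethasone replicate 3, 79 and 78 without control replicates 2 and 3), and dexamethasone against control had 1 to 3 members past the test. With all libraries of 1 number left out, an alternative chosen after seeing the data, fewer samples were tested. Without number 3 the genes past the test were 2665 for TGF-β1 against control, 802 for dexamethasone against control, 605 for both against TGF-β1, 2354 for both against dexamethasone, 3254 for both against control and 11 for the interaction, and 1 member passed for both against TGF-β1. Without number 1 the same counts of genes were 2410, 693, 457, 2202, 2772 and 0. Without number 2 they were 4310, 1411, 1075, 4305, 4778 and 171. Replicates 1 and 2 were shallower than replicate 3, and IGFBP5 had as few as 82 counts in a group, which limits its precision.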
